A study of Passer montanus with 72 samples.

Results

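The Z chromosome stretch described here runs from 25 to 50 Mb of the Z sequence of the deposited gene table, and its genes were compared between the sexes of the Eurasian tree sparrow (Passer montanus) in 3 brain regions. Genes were selected by the start position given in the table and by a mean count of at least 10 over all libraries, which took 140 of the 406 genes listed in the stretch, of 1084 genes on the Z sequence and 21957 genes in all. All 140 are protein-coding. The stretch also lists 103 long noncoding RNA genes, of which 96 had no count in any library. The gene with the lowest start is HSD17B4 (Z:25830442-25892564), a peroxisomal enzyme of fatty acid oxidation, and the one with the highest start is PLPP1 (Z:49965003-50026409), a lipid phosphatase. The genome build of these positions is not given in the sources used here. Just outside lie LOC100221074, which starts at 24832954, and SLC38A9, which starts at 50047464. At the count limit, FGF10 (mean count 10.7) and LPAR1 (11.2) were taken, and LOX (9.60) and RGP1 (8.38) were not. The limit uses the mean over both sexes and all regions, so the counts and medians below describe the genes that passed it and not the whole stretch.

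Samples came from 24 captive, wild-caught birds, 11 labelled female and 13 labelled male, with no other treatment, genotype or age in the labels. The caudal hippocampus, the rostral hippocampus and the striatum of every bird were sequenced separately, which makes 72 libraries. The series text speaks of dorsal hippocampus where the sample labels say caudal, and the labels are followed here. Bird ETSP 260, labelled female, is kept apart: its 3 libraries held no count of CHD1W, a gene of the W sequence, where each library of the 10 other females held 101 to 216. The sexes were therefore compared as 10 females against 13 males, and ETSP 260 is described on its own.

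Male birds are ZZ and females ZW, with a W that holds few genes. Z genes without a working W copy are present in a single dose in females, and avian dosage compensation acts on single genes rather than on the whole chromosome, so many Z genes have a higher RNA level in males. A log2 fold of 1 between males and females is the ratio of the gene doses, and a log2 fold of 0 is an equal RNA level. A set of genes that are sensitive to dose has kept a copy on the W in many birds, among them regulators of chromatin, RNA and protein turnover. The tissue samples are bulk RNA, in which fewer cells of a type and less RNA per cell cannot be told apart.

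Library totals were between 2629433 and 5323201 counts, with a median of 4071234. The regional labels were checked against lists of marker genes: the summed CPM (counts divided by the library total and scaled to 1e6) of 10 striatal medium spiny neuron markers was 3531 to 6179 in striatum and 382 to 661 in hippocampus, and that of 10 pallial neuron markers was at least 3105 in every hippocampal library. The striatum library of bird 6, a female, held 1661 CPM of the pallial markers, where the other striatum libraries held at most 402. The striatum library of bird 11, a male, had counts for 7718 genes, and every other striatum library for at least 10087. Markers of choroid plexus and ependyma moved with sex in caudal hippocampus, where 8 of 10 listed genes were in the table and 2 or 3 of those had no count in a sex: their summed CPM was 16.7 to 93.8 in females (median 59.8) and 20.1 to 2850 in males (median 749). They were at most 46.7 in every rostral hippocampus and striatum library. The labels name no batch and do not say how tissue was pooled or dissected.

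Taken as a sum, the 140 genes separated the sexes in every library. Here and below, CPM uses library totals scaled by TMM, a factor per library, which the marker sums above do not. In caudal hippocampus the sum was 3973 to 4271 CPM in the 10 females (median 4119) and 6292 to 6719 CPM in the 13 males (median 6584). The rostral hippocampus gave 4126 to 4830 CPM in females (median 4468) and 6462 to 7159 CPM in males (median 6814), and the striatum 3663 to 4154 CPM (median 3970) and 6133 to 6727 CPM (median 6464). No male library was as low as any female library in any region. The means were 4108 ± 86.4, 4442 ± 224 and 3984 ± 175 CPM in females (SD, n = 10) and 6571 ± 131, 6856 ± 211 and 6452 ± 198 CPM in males (SD, n = 13), in the same order of regions, and the ratio of male to female means was 1.60, 1.54 and 1.62. The 266 genes of the stretch below the count limit had medians of 31.9, 31.6 and 31.2 CPM in females and 59.1, 59.0 and 48.1 CPM in males in total, and 88 of them had any count.

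**Figure D1:**
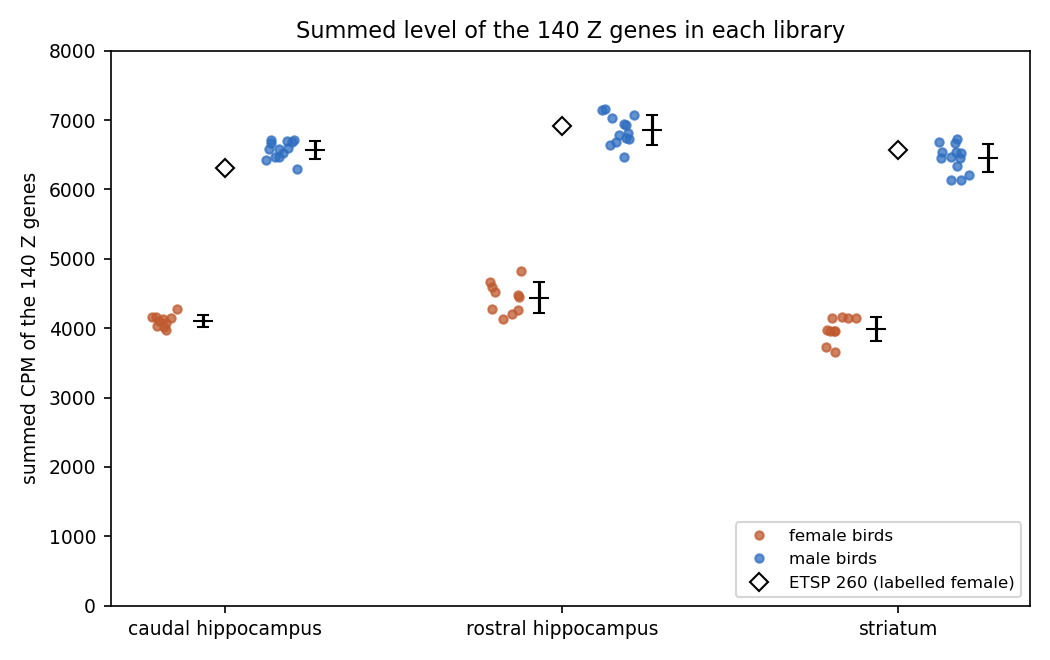
Summed CPM of the 140 genes (y axis, linear, from 0) in each library by region (x axis); points are libraries, the black bar beside each group is its mean with 1 SD (n = 10 females, n = 13 males), and the open diamond is ETSP 260. The female points lie between 3663 and 4830 and the male points between 6133 and 7159, and the diamonds, at 6305, 6917 and 6563, lie within the male range of their region.

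Most genes of the stretch were higher in males in each region and none was lower by the test. In caudal hippocampus 131 of the 140 passed the filter on low counts of the fit, 128 had a positive log2 fold of males over females, and 78 were called higher in males (edgeR quasi-likelihood test, Benjamini-Hochberg adjusted p under 0.05 over all genes), where 2.78% of all genes tested were called higher. In rostral hippocampus 138 were tested, 129 were positive and 80 were called, against 3.84% of all genes, and in striatum 137, 130 and 60, against 2.18%; without bird 11 the striatum had 72. The number called lower in males was 0 in each region, against 0.583%, 2.32% and 0.386% of all genes; it was also 0 by DESeq2 and by limma voom. The median log2 fold was 0.80 in the caudal part, 0.76 in the rostral part and 0.77 in striatum, or 1.75-fold, 1.69-fold and 1.71-fold. Z genes outside the stretch had medians of 0.74, 0.74 and 0.73, and genes on neither sex chromosome had -0.01, -0.01 and -0.02. Of the tested Z genes outside the stretch 59.0%, 59.2% and 49.6% were called higher in males. Within the stretch it was 59.5%, 58.0% and 43.8%. With the summed choroid plexus and ependyma markers as a covariate in caudal hippocampus, an alternative added after seeing the data, the count there was 50 and the median 0.74; the part of these markers in the single results was not tested otherwise.

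Of the 128 genes tested in all 3 regions, 117 had a positive log2 fold in all of them and 49 were called in all of them, while 98 of the 140 were called in at least 1. The 95% confidence interval of the log2 fold held 1, the ratio of the gene doses, and not 0 in most cases. It included 1 for 92, 79 and 94 genes and 0 for 20, 29 and 36, in caudal hippocampus, rostral hippocampus and striatum, and for 4, 6 and 15 genes it included both. It lay wholly between 0 and 1 for 22, 30 and 19 genes and wholly above 1 for 1, 6 and 3. Every male was above every female for 16, 18 and 16 genes, where 0.538%, 0.639% and 0.477% of all genes tested had that pattern. Of the tested Z genes outside the stretch, 32 of 256, 40 of 267 and 26 of 256 had it too. For ATP5F1A, CHD1, HSD17B4, NIPBL and UBAP2 every male was above every female in all 3 regions.

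NIPBL, HSD17B4 and ATP5F1A were among the genes with the smallest p for sex in every region. NIPBL (at 44.57 Mb), which loads cohesin onto chromatin, had 72.9 to 122 CPM in females (median 107) and 160 to 206 in males (median 185) in caudal hippocampus. Its levels were 61.8 to 102 (median 80.7) and 114 to 193 (median 165) in rostral hippocampus and 97.2 to 159 (median 117) and 201 to 302 (median 217) in striatum. The sexes did not overlap in any region. The log2 folds were 0.89 ± 0.08, 0.96 ± 0.09 and 0.93 ± 0.09 (SE; edgeR adjusted p = 4.42e-09, 8.03e-09 and 3.29e-09).

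HSD17B4 (25.83 Mb) had 49.1 to 77.2 CPM in females (median 59.0) and 97.9 to 138 in males (median 108) in caudal hippocampus. In rostral hippocampus it had 42.6 to 66.6 (median 58.8) and 81.1 to 138 (median 119), and in striatum 46.6 to 69.9 (median 60.9) and 101 to 141 (median 117). No male library of any region fell within the female range. Its log2 folds, 0.89, 1.04 and 1.02 with an SE of 0.09 each, were called (edgeR adjusted p = 3.44e-08, 1.46e-09 and 1.39e-09).

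ATP5F1A (35.47 Mb), the alpha subunit of the mitochondrial ATP synthase, had 193 to 357 CPM in females (median 282) and 406 to 616 in males (median 536) in caudal hippocampus. It had 160 to 279 (median 227) and 402 to 557 (median 474) in rostral hippocampus and 195 to 309 (median 241) and 421 to 617 (median 473) in striatum. Females and males stood apart throughout, with log2 folds of 0.93 ± 0.10, 1.08 ± 0.09 and 0.97 ± 0.08 (SE; edgeR adjusted p = 3.86e-08, 1.65e-10 and 5.81e-10). LOC100225249, described in the table as VCP, an ATPase that extracts ubiquitinated proteins, had 196 to 326 CPM in females (median 255) and 392 to 588 in males (median 470) in caudal hippocampus. Its log2 folds were 0.85, 1.00 and 0.83, all called, and the sexes overlapped in striatum, where the lowest male had 240 CPM and the highest female 264.

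UBAP2, a ubiquitin-binding protein, had log2 folds of 1.19 ± 0.12, 0.87 ± 0.10 and 1.20 ± 0.11 (SE). PAIP1, which binds the poly(A)-binding protein and promotes translation, had 0.71 ± 0.12, 1.12 ± 0.11 and 1.16 ± 0.11, with overlap of the sexes in caudal hippocampus, where the female of bird 1 had 57.8 CPM and the other females less. DNAJA1, a co-chaperone of the Hsp40 family, had 0.93 ± 0.13, 1.12 ± 0.15 and 1.18 ± 0.11. MRPL17, a protein of the mitochondrial ribosome, had 0.81 ± 0.19, 1.24 ± 0.12 and 0.89 ± 0.14. DMXL1, related to rabconnectin, was highest in its ratio in caudal hippocampus (1.11 ± 0.12) and had 0.60 ± 0.17 in rostral hippocampus and 0.92 ± 0.15 in striatum. All 15 of these folds were called by edgeR (adjusted p from 1.76e-09 to 0.0272). The call of PAIP1 in caudal hippocampus was lost with the choroid plexus covariate (adjusted p = 0.142) and with ETSP 260 among the females (0.0829), which also ended those of MRPL17 in caudal hippocampus (0.203) and DMXL1 in rostral hippocampus (0.0992).

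**Figure D2:**
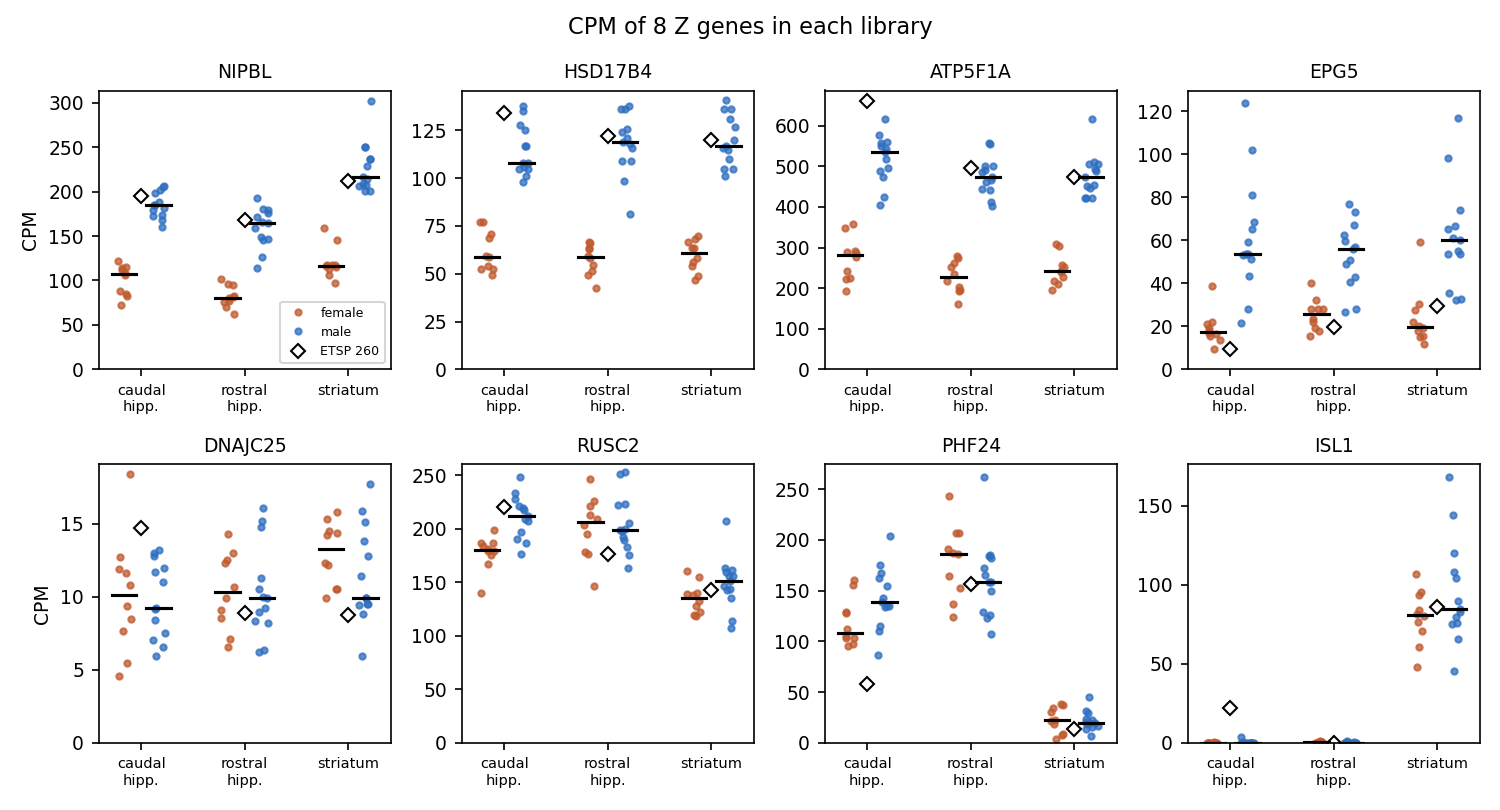
CPM (y axes, linear, from 0, one scale per panel) of 8 genes in each library by region (x axes); points are libraries, brown for females and blue for males, black lines are group medians and the open diamond is ETSP 260. In the panels of NIPBL, HSD17B4 and ATP5F1A the sexes do not overlap, in those of DNAJC25, RUSC2 and PHF24 they do, and ISL1 is at or near 0 in hippocampus except in the caudal library of ETSP 260, at 22.2 CPM.

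The ratio of the sexes differed widely between neighbouring genes of the stretch. The mean of the log2 folds over the regions ran from -0.07 to 1.71 over the 128 genes tested in all 3 (median 0.87): 70 genes were at 0.8 or more (1.74-fold), 35 between 0.4 and 0.8, and 23 under 0.4 (1.32-fold). Across these genes the log2 fold correlated between regions (Pearson's r 0.56 between both hippocampal parts, 0.67 between caudal hippocampus and striatum, 0.57 between rostral hippocampus and striatum); the regions share the birds, and genes are not independent replicates.

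The highest mean ratio was that of NOL6, a nucleolar protein of ribosome assembly, at 3.27-fold. NOL6 is a low gene that can pass the filter on low counts through the males alone, which favours a high rank. It had 0 to 8.66 CPM in females (median 1.86) and 1.71 to 14.7 in males (median 6.92) in caudal hippocampus, 0.990 to 7.45 (median 2.55) and 4.36 to 15.1 (median 7.41) in rostral hippocampus, and 0 to 3.32 (median 1.74) and 2.69 to 15.6 (median 6.80) in striatum. The sexes overlapped in each region, and its log2 folds of 1.52 ± 0.39, 1.5 ± 0.28 and 2.11 ± 0.39 carry the counting error of a low gene (SE; edgeR adjusted p = 0.0216, 0.000555 and 0.000544). LOC100217858, described as GTF2H2, a subunit of the general transcription factor TFIIH, followed at 2.96-fold and was called in all 3 regions. EPG5, which acts in the last step of autophagy, had a mean ratio of 2.6-fold. In females it had 9.42 to 38.8 CPM in caudal hippocampus (median 17.3), 15.3 to 40.2 in rostral hippocampus (median 25.7) and 11.6 to 59.4 in striatum (median 19.8), and in males 21.6 to 124 (median 53.6), 26.5 to 76.7 (median 56.2) and 32.4 to 117 (median 60.1). Its log2 folds of 1.69 ± 0.24, 1.06 ± 0.18 and 1.38 ± 0.24 were called (SE; edgeR adjusted p = 1.53e-05, 9.65e-05 and 0.000234), and the female with the highest value in caudal hippocampus and in striatum was bird 21. TPGS2, a subunit of the tubulin polyglutamylase, LOC100228406, described as the methionine salvage enzyme MTAP, RIT2, a neuronal small GTPase, and TBC1D2, which acts on Rab GTPases, had mean ratios of 2.55, 2.49, 2.46 and 2.45-fold. TPGS2 and LOC100228406 were called in all 3 regions. RIT2 was not called in striatum (adjusted p = 0.353) and TBC1D2 not in rostral hippocampus (0.053). The call of RIT2 in caudal hippocampus was lost with the choroid plexus covariate (adjusted p = 0.182). The call of TBC1D2 in caudal hippocampus (0.0479) was lost in 2 alternatives (0.0518 and 0.18), as was that of TPGS2 in striatum (0.0238; 0.0518 and 0.0528).

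At the other end, DNAJC25, an Hsp40 protein of membranes, was the only gene with a negative log2 fold in all 3 regions. It had 4.56 to 18.4 CPM in females (median 10.1) and 5.96 to 13.2 in males (median 9.22) in caudal hippocampus, 6.55 to 14.3 (median 10.3) and 6.23 to 16.1 (median 9.91) in rostral hippocampus, and 9.89 to 15.8 (median 13.3) and 5.96 to 17.7 (median 9.94) in striatum. The ranges overlapped almost wholly. The log2 folds were -0.05 ± 0.20, -0.00 ± 0.17 and -0.16 ± 0.18 (SE), none called, and the 95% intervals, -0.46 to 0.36, -0.36 to 0.36 and -0.52 to 0.20, did not hold 1. PHF24, a PHD finger protein, had log2 folds of 0.27 ± 0.12, -0.14 ± 0.12 and -0.03 ± 0.30, none called, and upper limits of 0.51, 0.11 and 0.59.

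RUSC2, a Rab effector that had 140 to 199 CPM in females (median 180) and 176 to 248 in males (median 212) in caudal hippocampus, was called there with a log2 fold of 0.25 ± 0.07 (SE; edgeR adjusted p = 0.0288). It had 0.03 ± 0.08 in rostral hippocampus and 0.15 ± 0.09 in striatum, neither called, and the upper limits of its 3 intervals were 0.39, 0.20 and 0.33. That call was lost in 4 of its alternatives, among them the covariate fit (adjusted p = 0.0645). PALM2AKAP2, an anchor of protein kinase A, PDZD2, a PDZ domain protein, NCBP1, a subunit of the nuclear cap-binding complex, and TMED7, a transmembrane trafficking protein of the early secretory pathway, had mean log2 folds of 0.04, 0.08, 0.09 and 0.16 and were called in no region. Of the 4 genes with a negative log2 fold in at least 2 regions, DNAJC25, PHF24, PALM2AKAP2 and the phospholipase gene PLCXD3, none was called lower.

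Position within the stretch went with little of this variation. The median of the mean log2 fold was 0.93 from 25 to 30 Mb (23 genes), 0.94 from 30 to 35 Mb (22 genes), 0.74 from 35 to 40 Mb (10 genes), 0.75 from 40 to 45 Mb (46 genes) and 0.93 from 45 to 50 Mb (27 genes). Genes far apart in their ratio lay in the same piece: the first held DNAJC25 (-0.07) and HSDL2 (1.27), the third SYT4 (0.18) and LOC100217858 (1.57), and the fourth PHF24 (0.03) and NOL6 (1.71). Adjacent genes differed by a median of 0.39 on the log2 scale (127 pairs), and all pairs of genes by 0.34 (8128 pairs). No test over genes was made. Positions and order are those of the deposited table, whose build and species are not given. TPGS2 and NOL6, both near the top, start at 40.36 and 40.52 Mb, and PHF24, near the bottom, at 41.70 Mb.

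**Figure D3:**
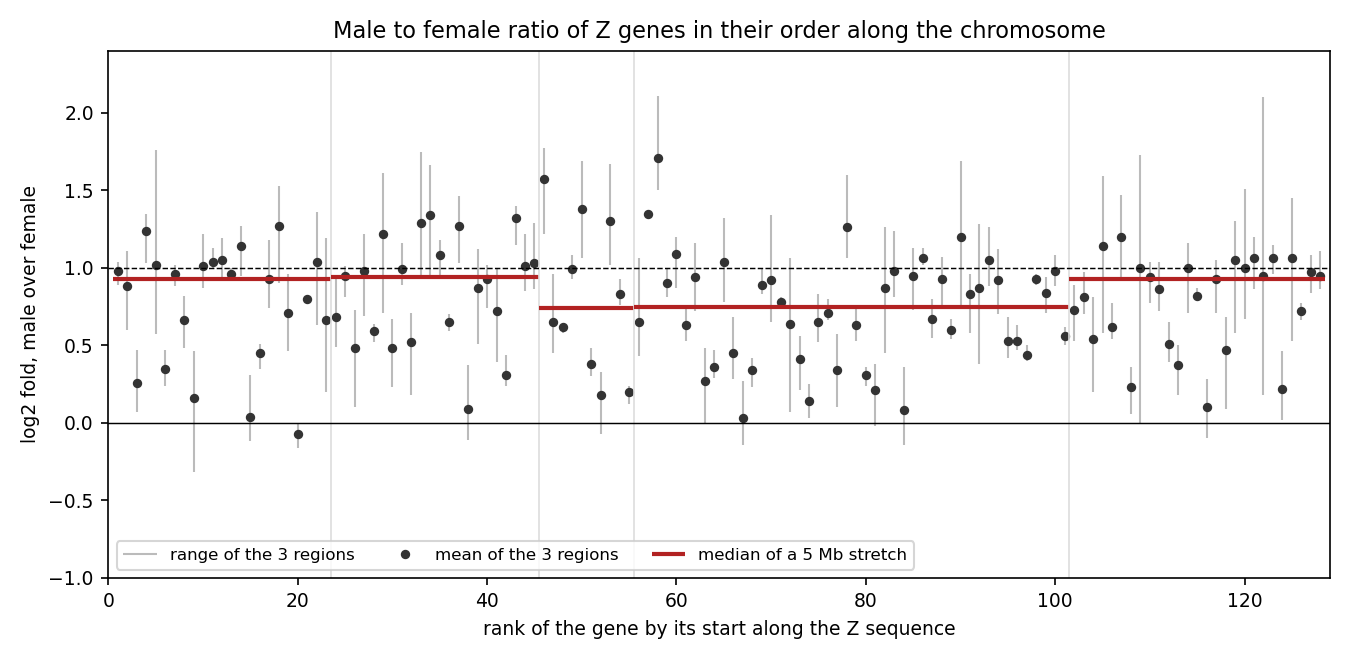
Log2 fold of males over females (y axis) of the 128 genes tested in all 3 regions, in their order along the Z sequence (x axis, rank by start); dots are means of the 3 regions, grey lines the range of the 3, red lines the medians of the 5 Mb pieces from 25 to 50 Mb, and the dashed line marks a log2 fold of 1. Dots between -0.07 and 1.71 are spread over the whole stretch, and the red lines lie between 0.74 and 0.94.

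Level and gene length were related to the ratio to a degree that is described here without a test. Split into 3 classes by mean CPM, the genes of the lowest class (2.85 to 9.03) had a median of the mean log2 fold of 0.95, those of the middle class (9.10 to 30.7) 0.72 and those of the highest (33.1 to 386) 0.81. Low genes can pass the count limit and the filter on low counts through the males, which favours high ratios in the lowest class. How far this moved its median was not tested. By the gene length of the deposited table, the shortest class (362 to 3151 bases) had 0.98, the middle class (3209 to 5997) 0.85 and the longest (6140 to 40214) 0.65.

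Grouped by function, the lists for transcription, RNA handling, protein turnover and metabolism had the higher median ratios. The list for neuronal signalling and that of 3 genes for extracellular matrix and adhesion had the lower ones. The lists were drawn up from general knowledge with earlier results of these data known, and a gene can be on more than one; 27 of the 140 are on none. Among these are genes of RNA handling or chaperones with low mean log2 folds: NCBP1 (0.09), CELF4 (0.20), DNAJC25 (-0.07) and DNAJB5 (0.34). MRPL17 (0.98) and the helicase gene DHX29 (0.72) are also on none. DNAJB5 and DHX29 are named after their values were seen. The list medians depend on such choices. Of 15 neuronal signalling and synapse genes, 13 were tested in all 3 regions, with a median of the mean log2 fold of 0.44, beside 0.87 for all 128 genes. Called higher in males were 6 of 13 tested in caudal hippocampus, 3 of 15 in rostral hippocampus and 1 of 15 in striatum, and the only one called in all 3 was DMXL1. Of all tested genes of the stretch, 59.5%, 58.0% and 43.8% were called in these regions. RIT2, described above, was called in both hippocampal parts, in the rostral part not in a single fit of all regions (adjusted p = 0.061). KCNN2, a calcium-activated potassium channel, had 9.14 to 21.3 CPM in females (median 12.6) and 17.3 to 32.3 in males (median 20.6) in caudal hippocampus, a log2 fold of 0.73 ± 0.15 (SE; edgeR adjusted p = 0.00159, and 0.132 with the choroid plexus covariate). It had 0.10 ± 0.14 in rostral hippocampus and 0.60 ± 0.26 in striatum, neither called. SLC1A3, the glial glutamate transporter, had 111 to 357 CPM in females (median 224) and 141 to 489 in males (median 289) in caudal hippocampus, with log2 folds of 0.40 ± 0.20, 0.42 ± 0.19 and 0.50 ± 0.18 in the 3 regions (SE), none called. Under 0.4 in the mean were 5 of the 13 (38.5%), among them SEMA6A, PALM2AKAP2, SYT4 and RUSC2, against 23 of all 128. The genes on no list had the same share, 10 of 26 tested in all 3 regions (38.5%), with a median of 0.68. The neuronal genes had a median length of 7327 bases, above that of every other list except extracellular matrix and adhesion (13295 bases). The lists were not tested against each other. Within the longest of the 3 length classes the 7 neuronal genes had a median of 0.41 and the 36 others 0.72, in the middle class 5 had 0.44 and 37 others 0.87, and in the shortest class 1 had 1.30 and 42 others 0.98.

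Of 14 genes for transcription factors and chromatin, 12 were tested in all 3 regions with a median of 0.99. Called higher in males were 11 of 12 tested in the caudal part, 9 of 13 in the rostral part and 7 of 14 in striatum. Besides NIPBL these were led by CHD1, a chromatin remodeller, with 22.1 to 38.2 CPM in females (median 27.9) and 39.0 to 69.3 in males (median 55.7) in caudal hippocampus. CHD1 had log2 folds of 1.00 ± 0.12, 0.96 ± 0.11 and 0.92 ± 0.09 (SE; edgeR adjusted p = 3.35e-07, 1.56e-07 and 2.05e-08), and the sexes did not overlap in any region. SUB1, a coactivator of RNA polymerase II, had 0.75 ± 0.12, 0.97 ± 0.11 and 1.07 ± 0.12, all called, the first not with ETSP 260 among the females (adjusted p = 0.113). An exception in this list was ISL1, a LIM homeodomain factor of striatal neurons, which was tested in striatum only: 48.0 to 107 CPM in females (median 81.0) and 45.2 to 168 in males (median 84.6), a log2 fold of 0.28 ± 0.17 that was not called.

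Of 14 genes for RNA processing and translation, 10 were called in all 3 regions, and 11 of 13, 13 of 14 and 11 of 14 in the single ones, with a median of 0.98. Besides PAIP1, MTREX, the helicase of the nuclear exosome, had 1.00 ± 0.13, 0.84 ± 0.12 and 1.08 ± 0.11 (SE), all called. MTREX overlaps PLPP1, and without a known strand setting reads of overlapping genes cannot be told apart. RPL37, a protein of the large ribosomal subunit, had 0.92 ± 0.14, 1.47 ± 0.18 and 1.22 ± 0.18, all called. Of 16 genes for ubiquitin, chaperones and proteolysis, 8 were called in all 3 regions (11, 12 and 9 in the single ones; median 0.93), led by VCP, UBAP2 and DNAJA1. Of 22 genes of mitochondria and metabolism, 11 were called in all 3 (15 of 21, 14 of 22 and 14 of 22 in the single ones; median 0.94), led by ATP5F1A, HSD17B4 and PLPP1. PLPP1 had 0.86 ± 0.10, 1.11 ± 0.11 and 0.88 ± 0.17 (SE), all called. In this list ACO1, GBA2 and OXCT1, named after their values were seen, were under 0.4 in the mean.

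Of 11 vesicle and membrane traffic genes, 3 were called in all 3 regions (5, 7 and 5 in the single ones; median 0.83). They were PIK3C3, the class III phosphoinositide kinase (0.80 ± 0.13, 0.76 ± 0.09 and 0.93 ± 0.10, SE), GOLPH3, a Golgi protein (1.13 ± 0.17, 0.99 ± 0.17 and 0.73 ± 0.15), and C9orf72, which acts in autophagy and membrane traffic (1.16 ± 0.20, 0.91 ± 0.17 and 0.89 ± 0.16). With the choroid plexus covariate C9orf72 was not called in caudal hippocampus (adjusted p = 0.0705). Of 7 genes of cell cycle, DNA repair, centrosome and cilium, 3 were called in all 3 (6, 6 and 3; median 0.84). This list also holds TLN1 (talin), TESK1 (an actin remodelling kinase) and RAI14, so its counts and median are not those of the named functions alone. DCTN3, a dynactin subunit, had 1.03 ± 0.20 and 1.32 ± 0.19 in the hippocampal parts, both called, and 0.78 ± 0.24 in striatum (edgeR adjusted p = 0.0928). RAI14, an actin-binding protein, and INIP, of a single-strand DNA binding complex, were called in all 3 regions, with log2 folds from 0.58 to 0.96 and from 0.74 to 1.18. The caudal call of RAI14 was lost with the covariate (adjusted p = 0.0526), its rostral call (0.0399) in 3 alternatives and its striatal call (0.0213) in 2, and the rostral call of INIP (0.0203) with ETSP 260 among the females (0.0861).

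Of 12 genes for kinase, receptor and growth factor signalling, the 7 tested in all 3 regions had a median of 0.73. In the single regions 2 of 10, 4 of 11 and 2 of 9 tested were called. RICTOR, the defining subunit of mTOR complex 2, had 133 to 277 CPM in females (median 203) and 245 to 459 in males (median 294) in caudal hippocampus, and log2 folds of 0.70 ± 0.13, 0.97 ± 0.12 and 0.77 ± 0.14 (SE; edgeR adjusted p = 0.000494, 8e-07 and 0.000559). RASA1, which switches off Ras, had 1.01 ± 0.12, 1.13 ± 0.13 and 0.99 ± 0.14, all called. The 3 genes for extracellular matrix and adhesion had a median of 0.47. Of them, ITGA2, a collagen receptor subunit, was called in rostral hippocampus (1.51 ± 0.32; 0.67 ± 0.23 in caudal hippocampus and 0.82 ± 0.36 in striatum, neither called). Its difference between the regions was not called (edgeR adjusted p = 0.666 over the 3 regions). TMEM8B and CELF4 are on no list. TMEM8B, a membrane protein, had log2 folds of 0.68 ± 0.16, 0.80 ± 0.11 and 0.66 ± 0.18, all called, and CELF4, a neuronal RNA-binding protein, had 0.12 ± 0.08, 0.24 ± 0.07 and 0.24 ± 0.09, called in rostral hippocampus only. The calls of TMEM8B in striatum (adjusted p = 0.0381) and of CELF4 (0.0327) were each lost in 4 of their alternatives, and that of TMEM8B in caudal hippocampus with ETSP 260 among the females (0.12).

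**Figure D4:**
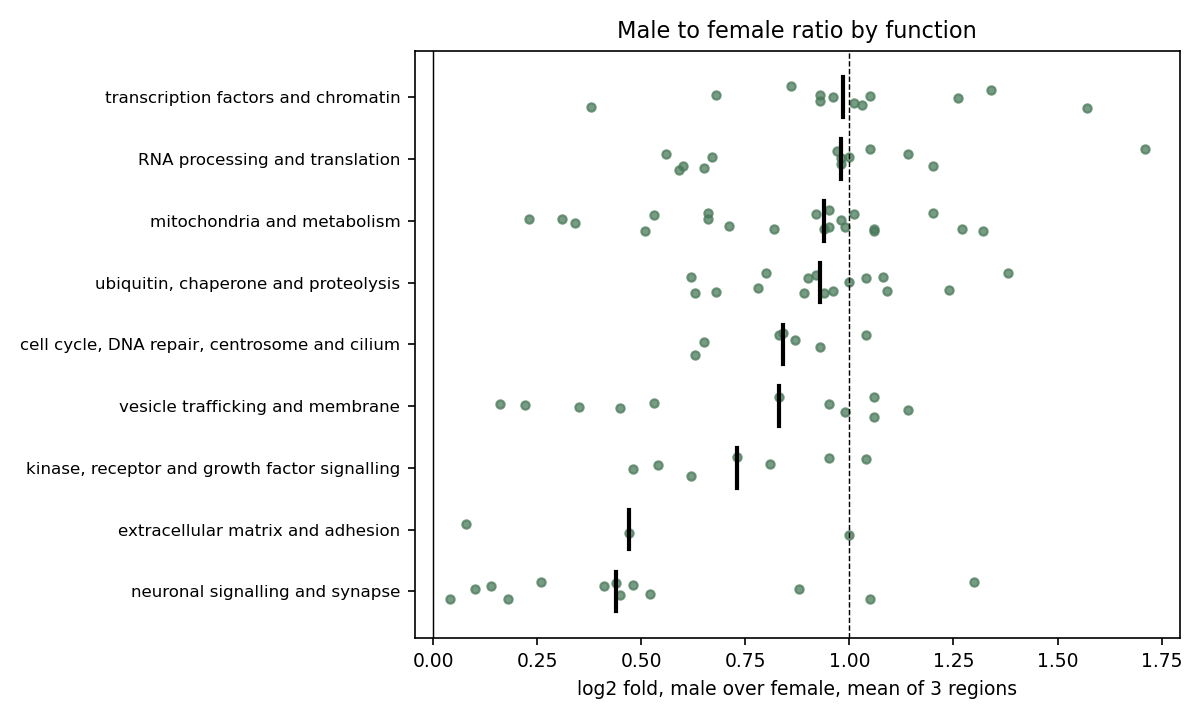
Mean log2 fold of males over females over the 3 regions (x axis) of the genes on each function list (y axis); dots are genes tested in all 3 regions, black bars are list medians and the dashed line marks a log2 fold of 1. The list medians lie between 0.44, for neuronal signalling and synapse, and 0.99, for transcription factors and chromatin.

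A set of 17 genes had a partner on the W sequence, found by the same protein gene name in the table's descriptions. This matching and the sums below were added after seeing the data. Reads of near-identical Z and W copies can be assigned to either, so the level of each copy alone is uncertain. In females 14 of the partners had a median of at least 1 CPM in every region. The W partners of PRKAA1 and SNX18 had no count in any female or male of the comparison, and that of CZH18orf25 had a median of at most 0.525 CPM in females. In males the W partners were at or near 0, with medians of at most 2.66 CPM except for VCP, at 14.0, 17.4 and 8.07 CPM. The 17 Z genes alone had median log2 folds of males over females of 0.90, 0.96 and 0.97 in caudal hippocampus, rostral hippocampus and striatum, and the 123 genes without a partner had 0.77, 0.70 and 0.76. All 10 tested genes on a list of Z genes with a W copy in chicken, made from general knowledge of chicken, were called in caudal hippocampus, and 10 of 11 in each of the other regions. Of all tested genes of the stretch 59.5%, 58.0% and 43.8% were called. The listed genes had a median level of 51.5 CPM, where the function lists had medians of 6.03 to 27.5 CPM. Their median of the mean log2 fold was 0.94, beside 0.87 for all 128 genes. The part of level in these calls was not tested. Of the caudal calls of listed genes, those of ZFR (adjusted p = 0.293) and UBE2R2 (0.0589) were lost with the choroid plexus covariate and that of SUB1 (0.113) with ETSP 260 among the females.

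With the W partner's counts added to those of the Z gene, the median log2 fold of the 17 was 0.00, 0.02 and -0.01. For the 14 whose partner had at least 1 CPM in females it was -0.10, -0.11 and -0.04. Called higher in males were 2, 2 and 2 of the 17, and called lower were 1, 6 and 3, where 2.61%, 3.58% and 1.98% of all genes in these fits were called higher and 0.404%, 2.11% and 0.284% lower (edgeR, adjusted over all genes). ATP5F1A was called lower in males in all 3 regions. Its W partner alone had 451 to 623 CPM in females in caudal hippocampus (median 556), 437 to 659 in rostral hippocampus (median 515) and 413 to 625 in striatum (median 522), a higher CPM than that of the Z gene in the same birds. Neither is per length, so whether the W copy gives more transcripts was not tested. The sums were 742 to 886 (median 842), 671 to 938 (median 726) and 669 to 915 (median 735) in females and 406 to 616 (median 536), 403 to 557 (median 474) and 421 to 617 (median 473) in males, without overlap in any region. The log2 folds of the sums were -0.66, -0.64 and -0.65 with an SE of 0.07 each (edgeR adjusted p = 4.41e-08, 6.4e-08 and 2.84e-07).

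ZNF131, FEM1C, PRKAA1 and SNX18 are named here after their values were seen. ZNF131, a zinc finger protein, also had more counts on its W partner than on the Z gene, 60.7%, 72.4% and 64.9% of the summed female CPM, again not per length. Its sum was 21.6 to 31.2 CPM in females (median 26.5) and 8.19 to 22.5 in males (median 14.8) in rostral hippocampus, and log2 folds were -0.51 ± 0.16, -0.82 ± 0.15 and -0.79 ± 0.16 (SE; edgeR adjusted p = 0.0753, 0.00034 and 0.00288). For NIPBL the sum was 179 to 244 CPM in females (median 231) and 162 to 210 in males (median 186) in caudal hippocampus. The sexes overlapped, with log2 folds of -0.22 ± 0.07, -0.21 ± 0.08 and -0.22 ± 0.08, none called. VCP had -0.21 ± 0.07, -0.27 ± 0.08 and -0.33 ± 0.08, called in rostral hippocampus (adjusted p = 0.0467) and striatum (0.011); the rostral call was lost in 3 of its alternatives (adjusted p from 0.057 to 0.0815). CHD1 was called lower in rostral hippocampus only (-0.31 ± 0.09; adjusted p = 0.0494), and that call was also lost in 3 alternatives (0.0589 to 0.078). RASA1 (-0.54 ± 0.11) and ZFR, an RNA-binding zinc finger protein (-0.43 ± 0.09), were called lower in rostral hippocampus.

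PAIP1 was higher in males after the sum as well, with log2 folds of 0.60 ± 0.12, 1.02 ± 0.11 and 1.02 ± 0.11 (SE; edgeR adjusted p = 0.00114, 1.28e-07 and 6.41e-08); its W partner held 7.27%, 6.77% and 9.65% of the female sum. The call in caudal hippocampus was lost with ETSP 260 among the females (adjusted p = 0.154). UBAP2 was called higher in striatum (0.57 ± 0.10), RPL37 in rostral hippocampus (0.70 ± 0.17) and SNX18, a sorting nexin whose partner had no counts, in caudal hippocampus (1.45 ± 0.32). In that region SNX18 had 0 to 2.55 CPM in females and 1.94 to 8.27 in males. It can pass the filter on low counts through the males alone, and its call carries that selection. With ETSP 260 among the females SNX18 was left out by this filter in caudal hippocampus and had no test there. UBE2R2, a ubiquitin-conjugating enzyme, GOLPH3, SUB1, FEM1C, PRKAA1 and CZH18orf25 were called in neither direction in any region where they were tested.

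**Figure D5:**
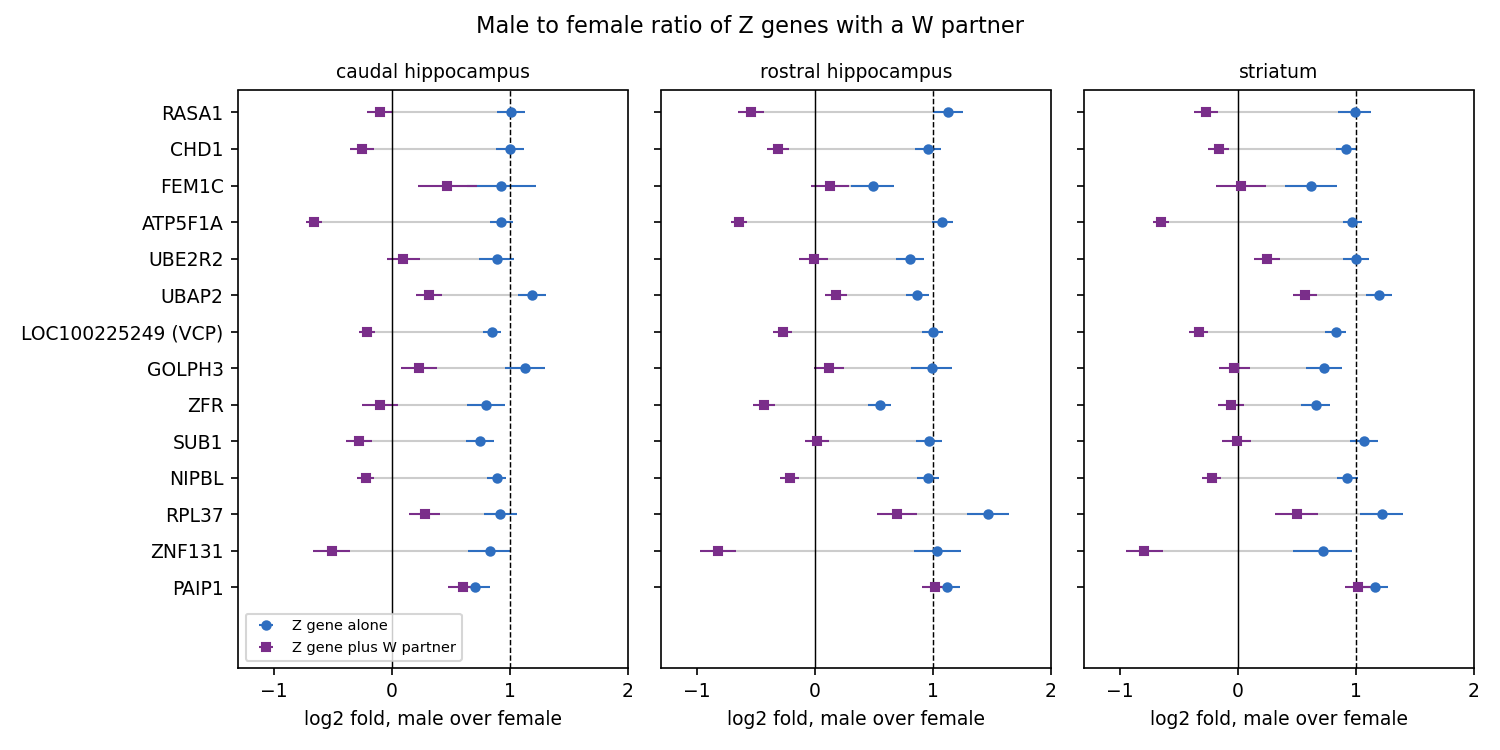
Log2 fold of males over females (x axes) with 1 SE of the 14 Z genes whose W partner had at least 1 CPM in females (y axis), for the Z gene alone (circles) and with the W partner's counts added (squares), by region; the dashed line marks a log2 fold of 1. Circles lie between 0.49 and 1.47, and squares between -0.82 and 1.02. PAIP1 is the gene whose circle and square lie closest together in each region.

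The difference between males and females was compared between the regions with the bird as a block. For the test over all 3 regions 0 of the 140 genes were called (12 had an unadjusted p under 0.05). Of all 9788 genes tested, 0.337% were called and 1186 had an unadjusted p under 0.05. Of the 140, DESeq2 called 2 and edgeR called 1 without bird 11. The smallest p belonged to FST, follistatin, a secreted antagonist of activin (edgeR adjusted p = 0.102). FST had 0.495 to 3.31 CPM in females (median 0.921) and 1.29 to 12.2 in males (median 4.91) in rostral hippocampus, 0.812 to 4.53 (median 2.63) and 0 to 5.70 (median 2.41) in caudal hippocampus, and 1.32 to 6.34 (median 3.09) and 1.82 to 14.2 (median 4.25) in striatum. The sexes overlapped in each region. In rostral hippocampus FST, with a female median of 0.921 CPM, can pass the filter on low counts through the males alone. Its log2 fold was 2.10 ± 0.38 in rostral hippocampus, where it was called (adjusted p = 0.00036), 0.18 ± 0.40 in caudal hippocampus and 0.58 ± 0.36 in striatum. Between the hippocampal parts the fold differed by 2.02 ± 0.57 (SE; edgeR adjusted p = 0.0473), the 1 gene of the 140 called in that contrast, where 1.84% of all genes were. That call was lost in 4 alternatives: with limma voom (adjusted p = 0.0779), with no filter on low counts (0.0646), without the replicate block (0.069) and without bird 6 (0.0865). In the contrast of the hippocampal parts 21 of the 140 had an unadjusted p under 0.05. None of the 140 was called between striatum and caudal hippocampus (0.0% of all genes; 3 of the 140 had an unadjusted p under 0.05) or between striatum and rostral hippocampus (0.0102%; 12 of the 140).

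FBXO4, an F-box protein, EPG5, PAIP1 and NPR2, the receptor of C-type natriuretic peptide, came next (edgeR adjusted p = 0.151, 0.178, 0.202 and 0.350). FBXO4 had log2 folds of 1.28 ± 0.32 and 1.73 ± 0.33 in the hippocampal parts (SE), both called, and -0.01 ± 0.44 in striatum; the caudal call was lost with the choroid plexus covariate (adjusted p = 0.214). NPR2 had 1.31 ± 0.39 in caudal and -0.49 ± 0.42 in rostral hippocampus, neither called. In these the difference between regions did not pass the threshold, which does not show that the regions are alike.

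Between regions the levels of the 140 genes, sexes together, were compared in the same fits as those of all genes. In striatum against both hippocampal parts 75 of the 140 were called, 30 higher and 45 lower, where 31.0% of all genes tested were called higher and 33.1% lower. ISL1 (48.29 Mb) had the largest difference: 45.2 to 168 CPM in striatum (median 82.5), 0 to 3.66 in caudal hippocampus and 0 to 1.22 in rostral hippocampus (median 0 in both), with no overlap. Its log2 fold was 8.85 ± 0.22 (SE; edgeR adjusted p = 2.51e-37), a fitted value that depends on how counts near 0 are handled. TNFAIP8, a regulator of cell survival, had 1.36 to 24.1 CPM in striatum (median 10.7) and at most 2.66 in hippocampus, ranges that overlap, and a log2 fold of 3.97 ± 0.22. TMOD1, which caps actin filaments, and TSTD2, a rhodanese-like protein, followed with 1.66 ± 0.18 and 1.40 ± 0.14; these genes overlap each other on the Z sequence.

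PHF24 was the gene with the largest difference in the other direction, at 3.81 to 44.9 CPM in striatum (median 20.5), 86.7 to 204 in caudal hippocampus (median 134) and 107 to 262 in rostral hippocampus (median 165). The striatum did not overlap either hippocampal part, and the log2 fold was -2.85 ± 0.12 (SE; edgeR adjusted p = 1.03e-27). NPR2 (-2.80 ± 0.39), the growth factor gene FGF10 (-2.56 ± 0.38) and GHR, the growth hormone receptor (-2.28 ± 0.21), were also lower in striatum. ATP5F1A had medians of 425, 413 and 421 CPM in caudal hippocampus, rostral hippocampus and striatum.

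Caudal against rostral hippocampus gave 59 of the 140 called, 17 higher and 42 lower in the caudal part, where 22.3% of all genes tested were called higher and 23.1% lower. SLC1A3 had 111 to 489 CPM in caudal (median 248) and 244 to 762 in rostral hippocampus (median 467), overlapping ranges and a log2 fold of -0.77 ± 0.12 (SE; edgeR adjusted p = 2.13e-06). The largest differences toward the rostral part were those of ST8SIA5, a sialyltransferase (-1.82 ± 0.28), PLCXD3 (-1.80 ± 0.34), LOC115490997, described as a glycosidase (-1.01 ± 0.29), and NADK2, the mitochondrial NAD kinase (-0.92 ± 0.15). Toward the caudal part they were those of LOC105760853, described as an unconventional myosin-VIIa (1.5 ± 0.23), RPL37 (0.76 ± 0.11), TXN, thioredoxin (0.67 ± 0.18), and LVRN, an aminopeptidase (0.62 ± 0.25). All 8 were called, LVRN (adjusted p = 0.0394) not in 4 of its alternatives (0.054 to 0.133). LOC105760853 is also among the genes called higher in males in caudal hippocampus (1.26 ± 0.32), a call lost with the choroid plexus covariate (adjusted p = 0.621).

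Levels of different genes can be compared only per length. Per kilobase of the length in the table, RPL37 was highest (mean 409 CPM per kilobase over the 69 libraries of the comparisons), followed by ATP5F1A (201), VCP (119) and NDUFS4 (115), a subunit of respiratory complex I; the median of the 140 genes was 4.08 and the lowest value 0.224. None of the table's gene identifiers is in the RefSeq table of Passer montanus, and 34 gene descriptions name Taeniopygia guttata. Whether the gene models are of the same species as the birds is not given. What that does to levels between genes, to positions and to gene order was not tested.

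ETSP 260, the bird labelled female without CHD1W counts, had summed levels of the 140 genes of 6305, 6917 and 6563 CPM in caudal hippocampus, rostral hippocampus and striatum. All 3 lie above every other bird labelled female (at most 4271, 4830 and 4154) and within the range of the males. Gene by gene, on the scale of log2(CPM + 0.5), 75.7% of the 140 genes in rostral hippocampus and 80.7% in striatum were nearer to the male median than to the female median. In caudal hippocampus it was 50% (70 of 140). The same shares were 59.5%, 77.3% and 83.7% in caudal hippocampus, rostral hippocampus and striatum for the 264 other Z genes at that count limit and 43.5%, 54.4% and 54.0% for 8562 genes on neither sex chromosome. The bird was above all 10 females for 56, 79 and 78 of the 140 genes and below all 13 males for 35, 8 and 4, in the same order of regions. Of the 8562 genes on neither sex chromosome, it was above all 10 females for 1401, 655 and 495. It was below all 13 males for 1628, 531 and 211 of these 8562.

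Single genes of ETSP 260 followed the males for NIPBL, with 195, 168 and 212 CPM, HSD17B4, with 134, 122 and 120, and ATP5F1A, with 662, 496 and 475, where its caudal value was above all 13 males. EPG5, at 9.52, 19.9 and 29.4 CPM, was below every male in each region. UBAP2 (29.7 CPM) and DMXL1 (14.3 CPM) in caudal hippocampus lay within the female range. The caudal library of this bird also held 22.2 CPM of ISL1, against at most 3.66 in any other hippocampal library, and 58.3 CPM of PHF24, against at least 86.7. With ETSP 260 counted among the females, as labelled, the median log2 fold of the 140 genes was 0.72, 0.65 and 0.67.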

How the data were processed

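RNA of 3 brain regions of 24 birds was sequenced, and the deposited table holds 1 count per gene and library, as the authors made it; HISAT2 and StringTie are named in the submitters' processing notes, with no version. Build, annotation, counting tool and strand setting: not given in the sources used here. Values are whole-number counts per gene, not normalized. From them, the CPM of genes and of summed genes is the count divided by the library total after TMM scaling over all libraries, and scaled to 1e6. The CPM of the marker lists is divided by the library total without TMM scaling. Depth was 2629433 to 5323201 counts per library, and no pair of libraries within a group agreed within sampling noise (399 pairs; lowest chi-square per degree of freedom 5.58).

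Sexes were compared within each region with edgeR 4.0.16 in R 4.3.3 (quasi-likelihood test; TMM; genes kept by filterByExpr at its settings of 10 for a library and 15 in total), with Benjamini-Hochberg adjustment over all genes tested and a threshold of 0.05. Regions and the sex by region difference were fitted over 69 libraries with the bird as a block. Labels give each bird's number in every region, and libraries of 1 bird deviated together (median correlation 0.148 over 69 pairs, and -0.00401 over 1518 pairs of different birds). Birds are the replicates. The alternatives were DESeq2 1.42.0, limma 3.58.1 (voom), other scaling, no filter, ETSP 260 as labelled, single birds left out and no replicate block. The fits were tested on simulated data.

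The genes and the lists were chosen with earlier results of these data known. Genes named are those with the smallest p for sex, the highest and lowest ratios, a lower level in males in 2 or more regions, the smallest interaction p, the highest levels, the largest regional differences, a W copy in chicken, up to 3 called genes per function list, and the genes at the edges. W partners were matched by the protein gene name in the descriptions. No reference sequence was at hand, and none is shown. Some genes that met this rule are not reported here.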

Additional observations from a re-analysis of the deposited data

Results flagged for a closer look

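Among the 62 named genes, the female group of a region held 1 library far from the others in 21 of 186 cases. The measure was the gap of the highest or lowest value over the range of the group. For normally distributed values chance gives about 1 in 20. Some of these genes are near 0 CPM, the cases share the same birds, and the genes were picked from these data. An excess of such libraries can therefore not be read from the count. Males, being more than 10, were not tested in this way. In caudal hippocampus these were PAIP1 in bird 1 (57.8 CPM), NOL6 in bird 10 (8.66), EPG5 in bird 21 (38.8), PLCXD3 in bird 4 (4.53), TMEM8B in bird 18 (253), ISL1 in bird 21 (0.262), RASA1 in bird 6 (48.2), CZH18orf25 in bird 22 (6.22), KCNN2 in bird 4 (21.3) and RAI14 in bird 19 (26.8), each the highest of its group. In rostral hippocampus they were NOL6 in bird 21 (7.45), FST in bird 13 (3.31), ISL1 in bird 14 (1.22), TSTD2 in bird 19 (8.39), ST8SIA5 in bird 22 (25.9), RPL37 in bird 4 (95.9) and PLPP1 in bird 4 (43.2), all highest, and TPGS2 in bird 13 (2.13), the lowest. In striatum they were EPG5 in bird 21 (59.4), RIT2 in bird 19 (5.80) and PLPP1 in bird 6 (43.6), whose library also held pallial markers.

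The male to female log2 fold of FST differed between rostral and caudal hippocampus by 2.02 (edgeR adjusted p = 0.0473), from 2.10 in the rostral to 0.18 in the caudal part; the call was lost in 4 alternatives (adjusted p from 0.0646 to 0.0865).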

How the results depend on the processing

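No result changed direction past its threshold under any alternative tried. The count of genes called higher in males ranged from 50 to 91 in caudal hippocampus, 51 to 91 in rostral hippocampus and 44 to 72 in striatum, and was 69, 66 and 46 with ETSP 260 among the females, where the medians moved to 0.72, 0.65 and 0.67. The choroid plexus covariate gave 50 calls in caudal hippocampus. Keeping only genes with a mean count of at least 50 gave 51 calls and a median of 0.66 in rostral hippocampus, with fewer genes tested. Without bird 6 the counts were 79, 75 and 54, and without bird 11 the striatum had 72. The covariate, bird 6 and Z plus W alternatives were chosen after seeing the data. For Z plus W in caudal hippocampus, DESeq2 called 4 genes lower in males and limma voom 2, edgeR called 0 higher with ETSP 260 among the females, and the median was 0.10 with no filter; the cause was not tested. The interaction gave 2 genes by DESeq2 and 1 without bird 11 (0 to 1 with a bird left out). Without the replicate block the interaction gave 0 genes, striatum against hippocampus 75 and caudal against rostral hippocampus 54, and the block is kept because regions share birds. How far depth limits single genes was not tested.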
